A study of Mus musculus with 6 samples.

Results

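Glucose is imported through transporters of the Slc2a family and broken down to pyruvate by the enzymes of glycolysis. Pyruvate either leaves the cell as lactate through Slc16a transporters or enters the mitochondrial tricarboxylic acid (TCA) cycle, whereas the pentose phosphate pathway diverts glucose phosphate to ribose for nucleotides and to NADPH for biosynthesis. The genes described here are 39 transporters and enzymes of these pathways, taken by name from 39179 rows of a gene expression table, and were chosen by role, with earlier results of these data known. All 39 had a row in the table.

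RNA-Seq was carried out on germinal center (GC) B cells and on resting, or naive, B cells from Peyer's patches, lymphoid organs in the wall of the small intestine. All mice were wild-type C57BL/6 females aged 12 wk, and the tissue was the ileum. The animals were littermates, as stated in the methods. GC B cells were sorted as B cells positive for Fas and GL7, and naive B cells as B cells negative for both. There were 3 replicates per population, which were pools of 5 mice each, so that the spread between pools does not give the spread between single animals. GCs are sites of rapid B cell division and antibody selection, and dividing lymphocytes are known for a high demand for glucose and for the building blocks made from it. Naive B cells are small and do not divide.

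Values are given in transcripts per 1000000 (TPM), a length-corrected share of all transcripts of a pool, so that levels of different genes can be set side by side. Gene positions are given on GRCm38.p6. A change in TPM is a change in that share. In bulk samples, fewer cells of a type and less RNA per cell cannot be told apart. Log2 fold changes are GC minus naive on the log2(TPM + 1) scale, which understates the change of genes near or below 1 TPM, and are given with their SE. Adjusted p values come from limma with Benjamini-Hochberg adjustment over all 12785 genes tested, and a gene is said to have risen or fallen in GC B cells where this adjusted p was under 0.05.

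The sorted cells matched their labels. The B cell genes Ms4a1 and Cd79a were abundant in every pool. Ms4a1 was at 906 to 956 TPM in GC and 708 to 722 TPM in naive pools, and Cd79a at 1057 to 1099 TPM and 2319 to 2402 TPM. All 5 GC markers rose, to a sum of 1173 to 1194 TPM from 50.9 to 56.5 TPM, and all 5 naive markers fell. Fas is among the GC markers and was itself used in the sort. The 6 proliferation markers summed to between 1716 and 1773 TPM in GC pools, against 150.2 to 155 TPM in naive pools. T cell markers summed to at most 3.51 TPM and myeloid markers to at most 7.07 TPM in any pool. The 4 markers of stroma and endothelium summed to 22.0 to 24.3 TPM in GC and 121 to 132 TPM in naive pools, almost all of it Pecam1, which lymphocytes also express (log2 fold change −2.38, adjusted p = 5.13e-07 in limma), and the other 3 were under 1 TPM in every pool. Markers of intestinal epithelium were present in both populations, up to a mean of 73.0 TPM for Fabp2 in naive pools, and moved with the groups. All 9 were detected, and their sums were 65.4, 154 and 79.8 TPM in GC replicates 1, 2 and 3, against 240.0, 203 and 204 TPM in the naive replicates. Of the 8 tested, 5 fell, 1 rose (Krt18) and 2 were not called, and Lgals4 fell most (log2 fold change −1.64 ± 0.24, adjusted p = 0.00117 in limma). The part of epithelial RNA in the results that follow was not tested.

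Transcripts of the core pathways of glucose use made up a larger share of RNA in GC than in naive B cells. The 39 genes summed to 6371, 6256 and 6226 TPM in the GC pools and to 3904, 3835 and 3948 TPM in the naive pools, a ratio of 1.61 between the means. Of the 37 members that passed the filter on low values, 25 rose (67.6%), 8 fell and 4 were not called in limma. Across all genes tested, 65.6% were called, 35.5% higher and 30.1% lower in GC B cells. At least a doubling was called for 10 members (27.0%), against 14.2% of all genes, and a fall by at least the same factor for 3 members, against 11.2% of all genes. In 34 of the 37 members, the 3 GC pools and the 3 naive pools did not overlap, as was the case for 70.7% of all genes. The median log2 fold change was 0.51 over the members and 0.03 over all genes. Hk3 and Ldhb did not pass the filter, which asked for at least 1 TPM in at least 3 pools.

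**Figure D1:**
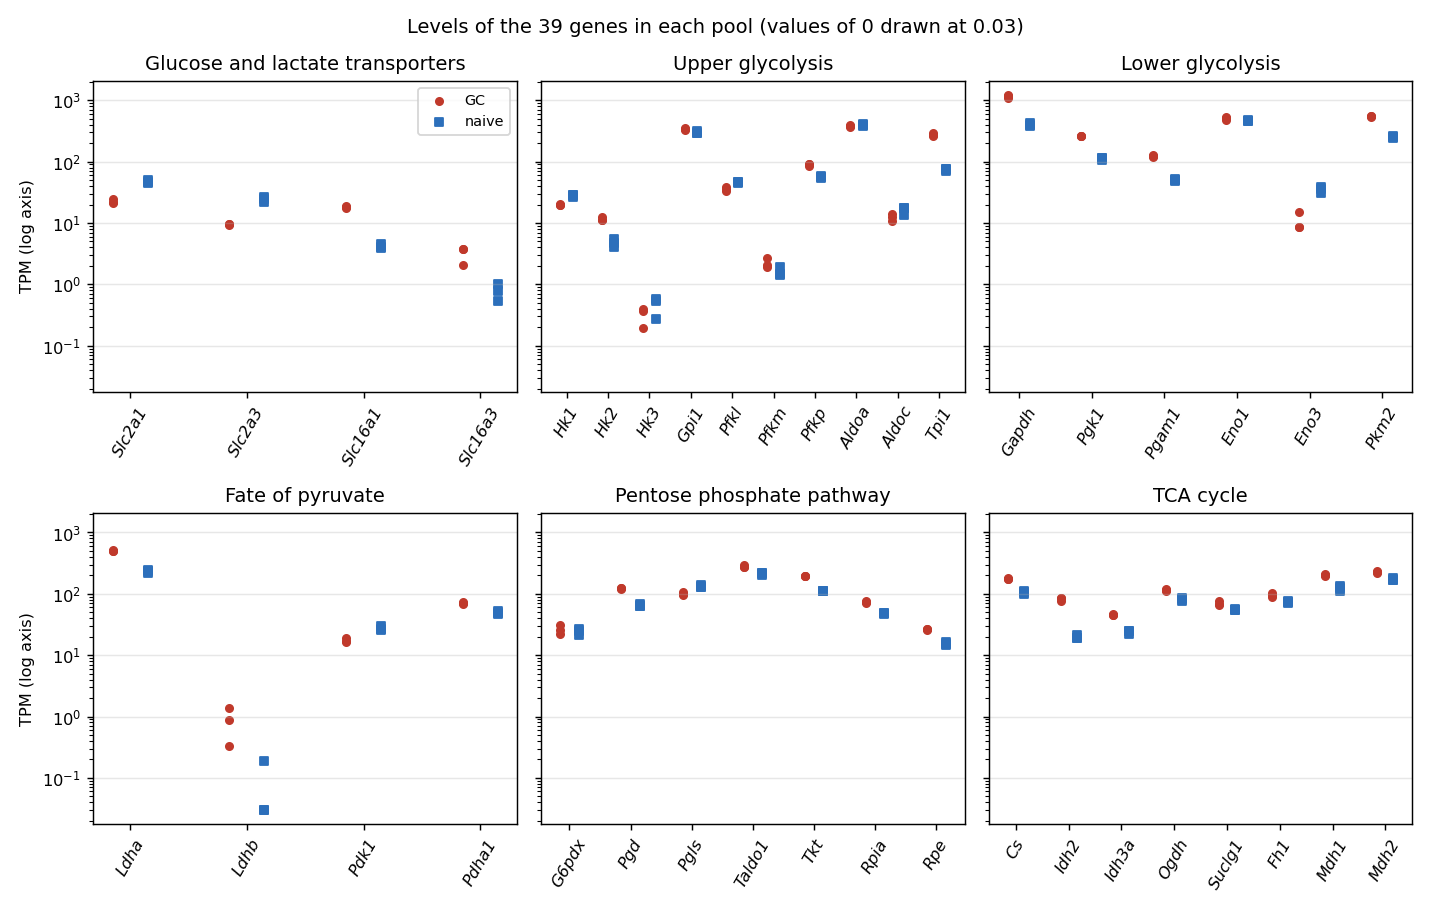
Level of each of the 39 genes in each pool, in TPM on a log axis, with the genes grouped by role. Red circles are the 3 GC pools and blue squares are the 3 naive pools, and naive values of Ldhb listed at 0 are drawn at 0.03. Gapdh reached about 1161 TPM in GC pools, and Hk3 and Ldhb lay near or below 1 TPM in every pool.

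The increase was not shared by all roles. Summed TPM was lower in GC B cells for the glucose and lactate transporters (ratio of the means 0.701) and higher for upper glycolysis (1.27), lower glycolysis (1.98), the fate of pyruvate (1.93), the pentose phosphate pathway (1.36) and the TCA cycle (1.55). In each of these 6 role groups the sums of the GC and naive pools did not overlap. Much of the difference lay in single genes in upper glycolysis (Tpi1, mean 277 against 74.6 TPM) and in the fate of pyruvate (Ldha, mean 507 against 233 TPM). The lower glycolysis genes alone summed to 2617 ± 74.4 TPM in GC and 1319 ± 22.4 TPM in naive pools (SD, n = 3), the largest sum among the 6 role groups. The median log2 fold change was 1.16 in lower glycolysis (6 tested), 0.61 in the pentose phosphate pathway (7 tested) and in the TCA cycle (8 tested), and 0.18 in upper glycolysis (9 tested). It was 0.51 for the fate of pyruvate (3 tested). Over the 4 transporters, of which 2 rose and 2 fell, it was 0.10. That value turned to −1.03 with a filter at 5 TPM. The median of upper glycolysis was 0.063 without a filter on low values and with a filter at 5 TPM, and 0.10 under quantile normalization.

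**Figure D2:**
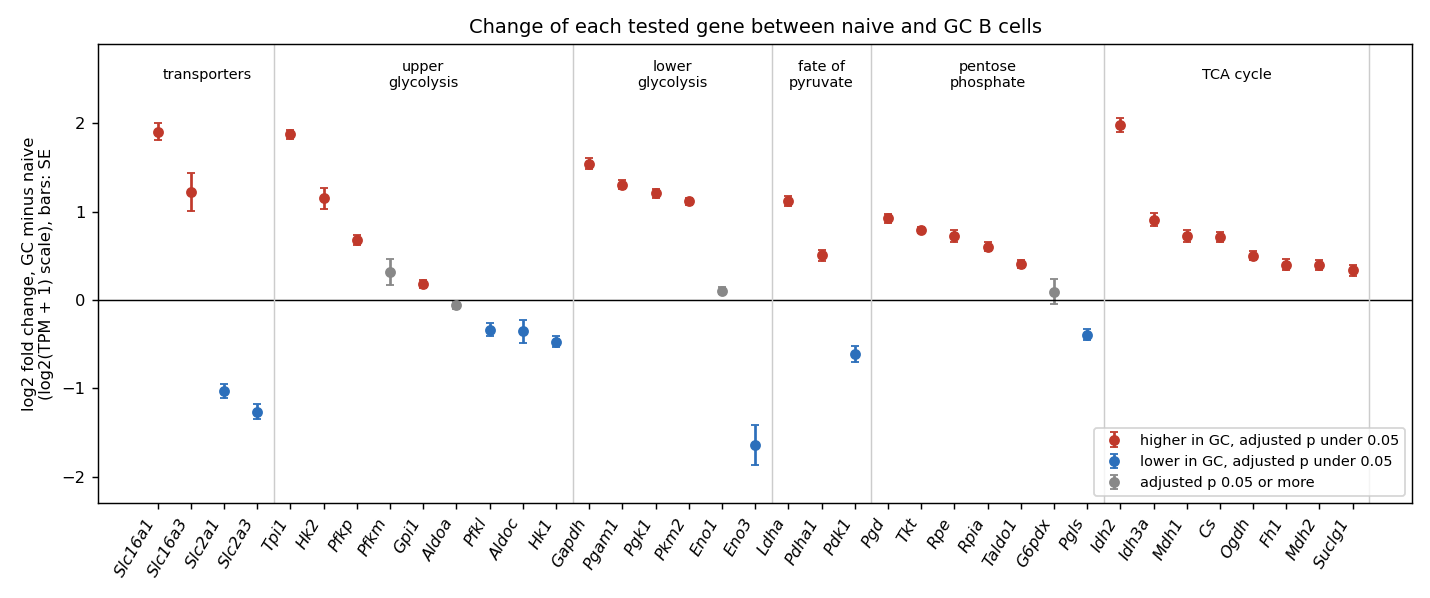
Log2 fold change (GC minus naive, log2(TPM + 1) scale) of the 37 tested genes, ordered by size within each role; bars are SE from limma. Red points rose, blue points fell and gray points were not called. All 8 TCA cycle genes lie above 0, and the glucose transporters Slc2a1 and Slc2a3 lie below it.

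Both glucose transporters among the 39 genes fell, and both lactate transporters rose. Slc2a1 (chr4:119108745-119137330), which encodes GLUT1, the main glucose transporter of many dividing cells, was found at 24.7, 21.5 and 22.3 TPM in GC pools, against 51.0, 46.5 and 45.5 TPM in naive pools. Every GC pool was below every naive pool (log2 fold change −1.03 ± 0.08, adjusted p = 5.09e-05 in limma). Slc2a3, which encodes the high-affinity glucose transporter GLUT3, was at 9.56, 9.36 and 9.74 TPM in GC pools and at 26.4, 24.6 and 22.2 TPM in naive pools. The groups did not overlap here either (log2 fold change −1.26 ± 0.09, adjusted p = 3.1e-05 in limma). Slc2a1 made up 70.5% ± 1.40 of the summed TPM of both genes in GC pools and 66.2% ± 0.942 in naive pools (SD, n = 3; exact permutation p = 0.10, the smallest that 3 against 3 pools can give). Both genes fell while the epithelial markers also fell. Of the other glucose transporters tested, Slc2a6 was at 14.9 to 19.0 TPM in GC and 14.3 to 21.1 TPM in naive pools, and Slc2a8 was at 4.35 to 6.84 and 4.27 to 6.90 TPM. Neither was called, and both were named after their values were seen.

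Slc16a1 (chr3:104638664-104658462) encodes MCT1, which carries lactate and pyruvate across the plasma membrane in both directions. It was measured at 17.6, 19.3 and 18.3 TPM in GC pools and at 3.92, 4.01 and 4.57 TPM in naive pools. This was a 4.41-fold difference between the means, with a log2 fold change of 1.91 ± 0.09 (adjusted p = 7.03e-06 in limma). Slc16a3, which encodes the lactate exporter MCT4, was far less abundant, at 3.73, 3.74 and 2.10 TPM in GC pools and 0.527, 0.766 and 1.03 TPM in naive pools. It rose by a log2 fold change of 1.22 ± 0.22 (adjusted p = 0.00271 in limma), but it passed the filter mainly through the GC pools, and 834 bases of its transcript overlap Csnk1d on the opposite strand, a gene measured at between 97.5 and 125 TPM. The 2 lactate transporters kept similar shares of their summed TPM, with Slc16a1 at 85.3% ± 3.83 in GC and 84.6% ± 3.33 in naive pools (SD, n = 3; exact permutation p = 0.70).

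To show the regulatory DNA next to genes that moved in opposite directions, the 250 bases before the annotated start are printed for the induced genes Ldha, Pgk1 and Slc16a1 and for Slc2a1, which fell. The sequences are from RefSeq on GRCm38.p6 and are read on the + strand, on which all 4 genes lie: chr7:46845554-46845803 for Ldha, chrX:106186850-106187099 for Pgk1, chr3:104638414-104638663 for Slc16a1 and chr4:119108495-119108744 for Slc2a1. The start used for Ldha is the first of those listed for it in the promoter table, and it lies inside the annotated span of the gene, which begins at chr7:46842274. Capitals mark ACGTG, the core of the hypoxia response element bound by HIF factors, on either strand (CACGT when read on the printed strand), and CACGTG, the palindromic E-box bound by MYC and other basic helix-loop-helix factors. Every CACGTG also contains ACGTG.
Ldha: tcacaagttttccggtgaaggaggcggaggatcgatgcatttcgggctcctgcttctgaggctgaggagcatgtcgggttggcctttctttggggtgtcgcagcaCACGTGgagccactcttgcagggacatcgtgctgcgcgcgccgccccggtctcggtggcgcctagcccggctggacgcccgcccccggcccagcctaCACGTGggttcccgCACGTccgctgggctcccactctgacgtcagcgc
Pgk1: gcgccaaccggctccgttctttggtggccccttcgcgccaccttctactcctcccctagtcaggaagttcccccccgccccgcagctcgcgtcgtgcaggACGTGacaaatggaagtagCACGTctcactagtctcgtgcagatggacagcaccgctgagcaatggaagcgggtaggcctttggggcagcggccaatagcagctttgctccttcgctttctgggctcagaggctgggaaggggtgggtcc
Slc16a1: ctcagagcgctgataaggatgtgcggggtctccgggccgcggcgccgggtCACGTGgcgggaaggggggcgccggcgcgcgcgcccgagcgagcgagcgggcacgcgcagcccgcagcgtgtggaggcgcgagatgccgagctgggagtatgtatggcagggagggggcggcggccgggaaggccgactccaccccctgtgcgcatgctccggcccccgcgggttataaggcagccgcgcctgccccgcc
Slc2a1: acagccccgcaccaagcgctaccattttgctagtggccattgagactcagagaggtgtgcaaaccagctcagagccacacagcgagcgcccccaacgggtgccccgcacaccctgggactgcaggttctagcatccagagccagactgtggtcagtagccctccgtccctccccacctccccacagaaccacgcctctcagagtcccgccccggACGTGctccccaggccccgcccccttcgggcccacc
The upstream region of Ldha holds 3 marked runs, of which 2 are the full palindrome, Pgk1 holds 2, and Slc16a1 and Slc2a1 hold 1 each. In the window from 250 bases before to 50 bases after each start, ACGTG on either strand was found in 17 of the 37 members with an entry (45.9%) and in 21.8% of all 27025 genes with one. Members had more annotated starts per gene, and counted by window the shares were 43.6% and 19.6%. The shares of all genes include genes not expressed in these cells. No comparison was made with genes matched for level or base composition. The motif was in 10 of 24 genes that rose, in 3 of 7 that fell and in 3 of the 4 that were not called, so that it was found in all of these classes. CACGTG was found in 4 members (Ldha, Ogdh, Pfkm and Slc16a1; 10.8%) and in 8.09% of all genes. A match describes the letters only, and binding was not measured in these samples.

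Glycolysis fell into blocks of steps with different changes. When the TPM of all members catalyzing a reaction were summed, 6 of 11 steps were between 2.18-fold and 3.71-fold higher in GC B cells. These were the steps from triosephosphate isomerase to phosphoglycerate mutase, pyruvate kinase and lactate dehydrogenase. The other 5 steps had ratios between 0.955 and 1.25. Hexokinase, aldolase and enolase were the 3 steps at which GC and naive pools overlapped.

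**Figure D3:**
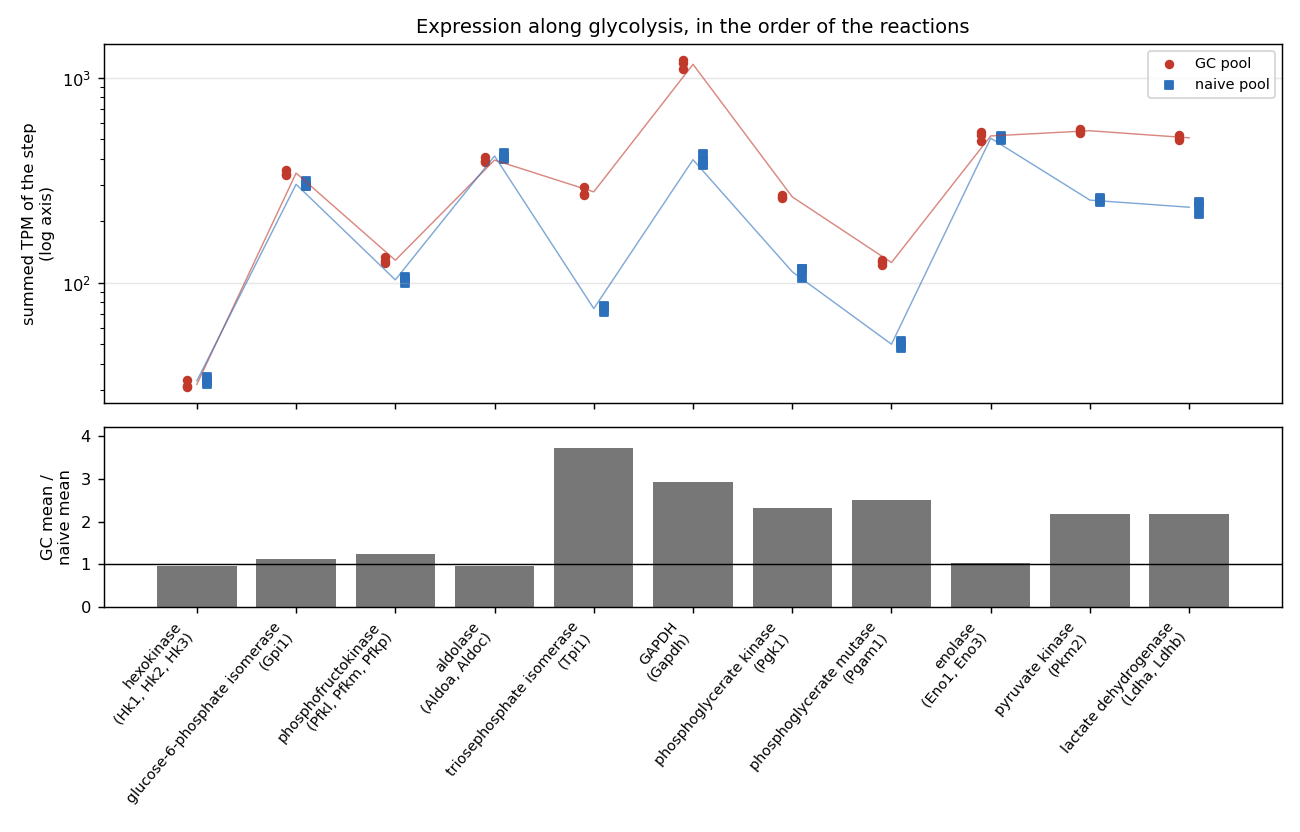
Upper panel, summed TPM (log axis) of the members catalyzing each of the 11 steps from hexokinase to lactate dehydrogenase, in the order of the reactions, with 1 point per pool and lines through the means. Lower panel, ratio of the GC mean to the naive mean. Ratios lie near 1 up to aldolase, reach 3.71 at triosephosphate isomerase and return to 1.03 at enolase.

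At the entry to glycolysis, Hk1 fell and Hk2 rose, while the summed hexokinase level overlapped between the populations. Hexokinase phosphorylates glucose and traps it in the cell. Hk1, the isoenzyme of most resting tissues, was at 19.4, 19.5 and 20.8 TPM in GC pools and at 26.9, 28.5 and 28.5 TPM in naive pools, a fall of −0.47 ± 0.06 on the log2 scale (adjusted p = 8.13e-04 in limma). Hk2 (chr6:82725025-82774454), the inducible isoenzyme of insulin-responsive and dividing cells, was at 11.1, 11.2 and 12.6 TPM in GC pools and at 4.68, 5.39 and 4.03 TPM in naive pools. The groups did not overlap for either gene, and Hk2 rose by 1.15 ± 0.12 on the log2 scale (adjusted p = 2.32e-04 in limma). Hk3, typical of myeloid cells, was between 0.195 and 0.575 TPM in all pools and was not tested. The summed hexokinase level was 31.9 ± 1.48 TPM in GC and 33.1 ± 1.31 TPM in naive pools (SD, n = 3), and these pools overlapped. Within this sum, the share of Hk2 was 36.5% ± 0.810 in GC and 14.2% ± 1.78 in naive pools, a difference in the same direction in all pools (exact permutation p = 0.10, the smallest that 3 against 3 pools can give).

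At phosphofructokinase, the committed step of glycolysis, Pfkp rose and Pfkl fell. Pfkp, the platelet isoenzyme, was at 93.2, 92.5 and 85.0 TPM in GC pools and at 53.7, 57.8 and 56.0 TPM in naive pools, and rose by 0.68 ± 0.06 on the log2 scale (adjusted p = 8.59e-05 in limma). Pfkl, the liver isoenzyme, was at 38.7, 33.0 and 36.3 TPM in GC pools and at 44.1, 46.1 and 46.6 TPM in naive pools, and fell by 0.34 on the log2 scale (adjusted p = 0.00655 in limma). A stretch of 372 bases of Pfkp overlaps Pitrm1 on the opposite strand, which was at 20.8 to 24.0 TPM in all pools. Pfkp supplied 70.2% ± 2.05 of the family's TPM in GC and 54.2% ± 0.400 in naive pools (SD, n = 3; exact permutation p = 0.10). The muscle isoenzyme Pfkm was weakly expressed, at 2.25 ± 0.404 against 1.60 ± 0.260 TPM, and was not called (log2 fold change 0.32, 95% CI −0.05 to 0.68, adjusted p = 0.108 in limma). It was called higher after correction for GC content and transcript length (adjusted p = 0.043 in limma), but not when that correction was combined with the replicate block (adjusted p = 0.0694), and it was not called in 18 of 19 fits.

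**Figure D4:**
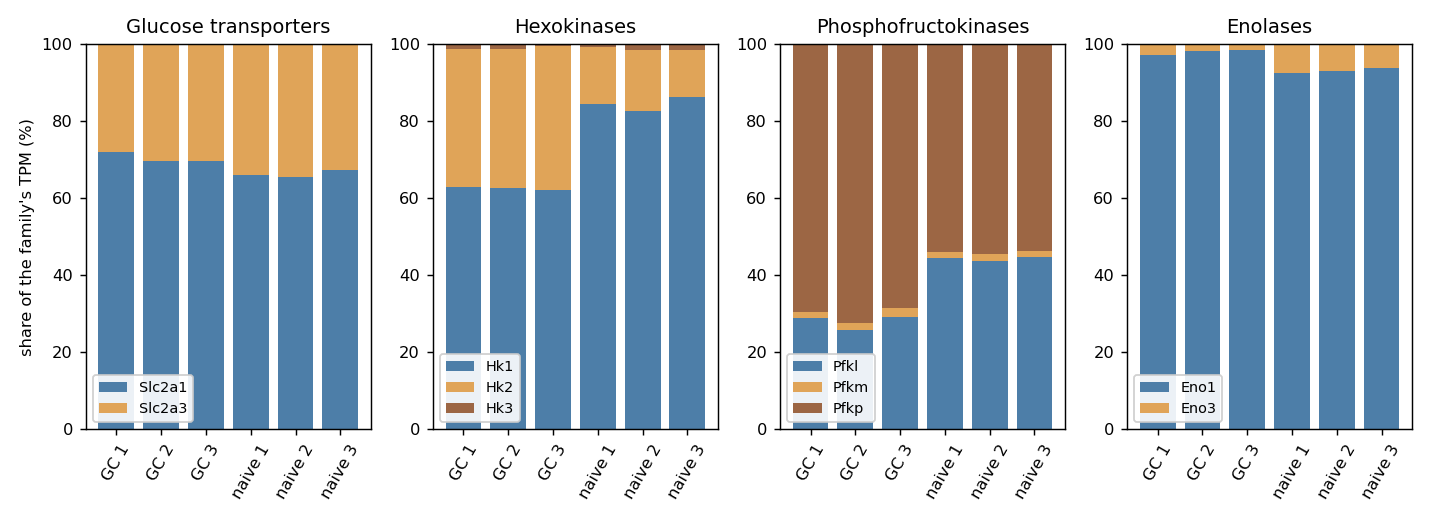
Share (%) of each isoenzyme in the summed TPM of its family in each of the 6 pools, for glucose transporters, hexokinases, phosphofructokinases and enolases. Hk2 makes up about 36.5% of hexokinase transcripts in GC pools and 14.2% in naive pools, and Pfkp 70.2% and 54.2%.

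The remaining genes of upper glycolysis differed in size of change. Gpi1, glucose phosphate isomerase, was at 338, 333 and 355 TPM in GC pools and at 297, 294 and 313 TPM in naive pools. The pools did not overlap, but the change was small (log2 fold change 0.18 ± 0.04, adjusted p = 0.0109 in limma), and it was not called with FPKM as deposited, quantile normalization or median-of-ratios scaling (adjusted p between 0.076 and 0.0858). Aldoa, the main aldolase, was at 383 ± 12.6 TPM in GC and 398 ± 16.4 TPM in naive pools and was not called (95% CI −0.17 to 0.06 on the log2 scale, adjusted p = 0.343 in limma). It was called lower under quantile normalization (log2 fold change −0.19, adjusted p = 0.0141 in limma) and after correction for GC content and length (−0.14, adjusted p = 0.0313 in limma). Aldoc, an aldolase known from brain, was at 12.5, 13.8 and 10.9 TPM in GC pools and 17.4, 17.3 and 13.7 TPM in naive pools. These groups overlapped, and the fall of −0.35 ± 0.13 on the log2 scale was at the edge of the threshold (adjusted p = 0.0493 in limma). It was called in 13 of 20 fits. It was not called without GC replicate 1, GC replicate 3, naive replicate 1 or naive replicate 2 (adjusted p between 0.0971 and 0.136), nor with a pseudocount of 0.1, without a filter on low values or without the variance trend (adjusted p between 0.0509 and 0.0812). Tpi1 (chr6:124810586-124814158), triosephosphate isomerase, which interconverts the triose phosphates made by aldolase, changed most among the glycolytic enzymes that rose. It was at 270, 294 and 267 TPM in GC pools and at 76.6, 71.5 and 75.8 TPM in naive pools, a 3.71-fold difference (log2 fold change 1.88 ± 0.05, adjusted p = 7.68e-07 in limma).

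In lower glycolysis, where the pathway yields ATP and NADH, 4 of 6 genes at least doubled, against 14.2% of all genes tested. Gapdh (chr6:125161852-125166467), the enzyme that yields NADH, was at 1214, 1172 and 1096 TPM in GC pools and at 393, 377 and 423 TPM in naive pools (log2 fold change 1.54 ± 0.06, adjusted p = 2.49e-06 in limma). By mean TPM it was at rank 130 of all rows in GC and at rank 305 in naive B cells. A total of 48 near-identical copies of Gapdh elsewhere in the table summed to 10.4 ± 0.666 TPM in GC and 8.98 ± 0.268 TPM in naive pools (SD, n = 3), and adding them gave a log2 fold change of 1.52. Pgk1, phosphoglycerate kinase, the first ATP-yielding enzyme, was at 258, 261 and 266 TPM in GC pools and at 116, 105 and 117 TPM in naive pools, a rise of 1.21 ± 0.05 on the log2 scale (adjusted p = 4.13e-06 in limma). Pgam1, phosphoglycerate mutase, was at 125, 121 and 129 TPM in GC pools and at 50.1, 51.8 and 48.1 TPM in naive pools (log2 fold change 1.31 ± 0.05, adjusted p = 2.48e-06 in limma). Its pseudogene Pgam1-ps2 was identical over 765 aligned bases and was listed at 99.2 ± 9.28 TPM in GC and 39.0 ± 5.26 TPM in naive pools (SD, n = 3). How reads were divided between them is therefore uncertain. With both added together, the log2 fold change was 1.32. Pkm2, the gene also named Pkm, encodes pyruvate kinase M, which yields the final ATP of glycolysis. It was at 564, 538 and 549 TPM in GC pools and at 253, 246 and 258 TPM in naive pools (log2 fold change 1.12 ± 0.04, adjusted p = 1.53e-06 in limma). The gene-level value does not separate its M1 and M2 splice forms.

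Enolase stood apart from its neighbors in the pathway. Eno1, the broadly expressed enolase, was at 526, 483 and 515 TPM in GC pools and at 468, 481 and 464 TPM in naive pools. The groups did not overlap, but by a narrow gap, and Eno1 was not called (log2 fold change 0.11, 95% CI 0.00 to 0.22, adjusted p = 0.0704 in limma). It was called without GC replicate 2 (0.14, adjusted p = 0.0351 in limma), and its sign turned under quantile normalization (−0.033). Eno3 (chr11:70653125-70662513), known as the muscle enolase, was at 15.4, 8.68 and 8.54 TPM in GC pools and at 38.3, 36.2 and 30.6 TPM in naive pools. It fell by 1.64 on the log2 scale (adjusted p = 8.14e-04 in limma), the largest fall among the 37 tested genes. The highest GC value, in replicate 1, was well above the other two, and without that pool Eno3 fell by 1.901 on the log2 scale. The 6 muscle markers summed to between 5.98 and 7.90 TPM in GC and 3.98 and 4.93 TPM in naive pools. Only Tagln among them was tested, and it was not called, and the part of other cells in the fall of Eno3 was not tested. Eno3 supplied 2.08% ± 0.666 of enolase transcripts in GC and 6.92% ± 0.700 in naive pools (SD, n = 3; exact permutation p = 0.10).

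At the branch point of pyruvate, the lactate-forming enzyme Ldha and the dehydrogenase subunit Pdha1 rose, and the kinase Pdk1 fell, whereas the related kinase Pdk3, outside the 39 genes, rose. Ldha, the lactate dehydrogenase subunit that favors lactate formation, was at 523, 492 and 507 TPM in GC pools and at 236, 217 and 246 TPM in naive pools (log2 fold change 1.12 ± 0.06, adjusted p = 7.85e-06 in limma). Ldhb, the subunit typical of heart, was at 0.331, 1.38 and 0.864 TPM in GC pools. In the naive pools it was listed at 0, 0.192 and 0 TPM. It was too low to be tested, and Ldha made up at least 99.7% of the family's TPM in every pool. Pdk1, a kinase that inactivates pyruvate dehydrogenase and so holds pyruvate out of the TCA cycle, was at 16.8, 18.9 and 16.6 TPM in GC pools and at 26.6, 29.5 and 25.4 TPM in naive pools (log2 fold change −0.61 ± 0.09, adjusted p = 0.00101 in limma). Pdha1, the catalytic subunit of that dehydrogenase, was at 67.9, 71.7 and 73.7 TPM in GC pools and at 49.0, 52.6 and 47.7 TPM in naive pools (log2 fold change 0.51 ± 0.06, adjusted p = 4.11e-04 in limma). Of its transcript, 426 bases overlap Map3k15 on the opposite strand, which was at 10.2 to 11.6 TPM in GC and 0.797 to 1.03 TPM in naive pools.

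In the pentose phosphate pathway, 5 of 7 genes rose, each by less than a factor of 2, 1 fell and the entry enzyme was not called, beside the 35.5% of all genes that rose and the 30.1% that fell. G6pdx, glucose phosphate dehydrogenase, the rate-limiting enzyme that commits glucose to the pathway, was at 30.9, 25.3 and 22.4 TPM in GC pools and at 26.6, 25.2 and 21.1 TPM in naive pools. The pools overlapped widely, and the 95% CI of the log2 fold change ran from −0.24 to 0.43 (estimate 0.10, adjusted p = 0.57 in limma), with a sign that turned without GC replicate 1 (−0.023). Pgls, the lactonase of the following step, was at 95.3, 109 and 98.2 TPM in GC pools and at 128, 131 and 138 TPM in naive pools, and was the only member of the pathway that fell (log2 fold change −0.39 ± 0.06, adjusted p = 0.00186 in limma). It shares 373 bases on the same strand with Fam129c, which was at 17.8 to 22.7 TPM in GC and 81.6 to 115 TPM in naive pools, so that reads could be divided between both genes, and the part of this overlap in the fall of Pgls was not tested. Pgd, phosphogluconate dehydrogenase, the second source of NADPH, was at 126, 122 and 122 TPM in GC pools and at 62.3, 67.1 and 64.4 TPM in naive pools. It had the largest rise in the pathway (log2 fold change 0.92 ± 0.05, adjusted p = 8.34e-06 in limma).

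The 4 nonoxidative enzymes, which interconvert pentoses and glycolytic sugars, all rose, beside 35.5% of all genes tested. Tkt, transketolase, was at 192, 198 and 192 TPM in GC pools and at 109.7, 113 and 111 TPM in naive pools (log2 fold change 0.79 ± 0.04, adjusted p = 6.7e-06 in limma). Taldo1, transaldolase, was the most abundant gene of the pathway in both populations, at 281 ± 11.1 TPM in GC and 211 ± 6.12 TPM in naive pools (SD, n = 3), and rose by 0.41 on the log2 scale (adjusted p = 3.09e-04 in limma). Rpia, ribose phosphate isomerase, which makes the sugar of nucleotides, was at 73.7 ± 2.69 and 48.1 ± 1.29 TPM (log2 fold change 0.61, adjusted p = 8.84e-05 in limma). Rpe, the epimerase beside it, was at 26.5 ± 0.625 and 15.6 ± 0.754 TPM (log2 fold change 0.73, adjusted p = 1.29e-04 in limma). GC and naive pools did not overlap for any of these 4 genes, as was the case for 70.7% of all genes tested. Rpe shares 563 bases with 1110028C15Rik on the opposite strand, which was at 3.80 to 5.20 TPM in GC and 7.56 to 9.03 TPM in naive pools.

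All 8 TCA cycle members rose, beside 35.5% of all genes, and Idh2 changed most among them. Idh2 (chr7:80094845-80118608), the mitochondrial isocitrate dehydrogenase that yields NADPH, was at 75.03, 84.7 and 84.9 TPM in GC pools and at 21.4, 19.1 and 19.0 TPM in naive pools. The ratio of the means was 4.11, and the log2 fold change was the largest among the 37 tested genes (1.99 ± 0.08, adjusted p = 2.67e-06 in limma), although Slc16a1 and Slc16a3 had slightly larger ratios of the means (4.41 and 4.12). Idh3a, the catalytic subunit of the NADH-yielding isocitrate dehydrogenase, was at 45.6, 47.1 and 45.7 TPM in GC pools and at 25.2, 25.2 and 22.0 TPM in naive pools (log2 fold change 0.91 ± 0.07, adjusted p = 5.85e-05 in limma). Cs, citrate synthase, the entry enzyme of the cycle, was at 178, 176 and 172 TPM in GC pools and at 111, 109 and 99.9 TPM in naive pools (log2 fold change 0.71 ± 0.05, adjusted p = 4.42e-05 in limma). The cytosolic malate dehydrogenase Mdh1, which serves the malate-aspartate shuttle, was at 203 ± 5.88 and 123 ± 10.6 TPM (SD, n = 3; log2 fold change 0.72, adjusted p = 1.49e-04 in limma). The mitochondrial enzyme Mdh2 was at 227 ± 11.3 and 173 ± 7.64 TPM (0.40, adjusted p = 8.82e-04 in limma).

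The other 3 genes of the cycle rose by at most 0.50 on the log2 scale. Ogdh, of the oxoglutarate dehydrogenase complex, was at 116 ± 2.51 TPM in GC and 81.6 ± 3.94 TPM in naive pools (SD, n = 3; log2 fold change 0.50, adjusted p = 2.1e-04 in limma). Fh1, fumarase, was at 96.8 ± 6.47 and 72.9 ± 2.21 TPM (0.40, adjusted p = 0.00142 in limma). Suclg1, a subunit of succinyl-CoA ligase, was at 69.3, 75.4 and 66.6 TPM in GC pools and at 55.0, 57.4 and 54.1 TPM in naive pools (0.34, adjusted p = 0.00315 in limma). After correction for GC content and transcript length the difference was 0.08 and Suclg1 was not called (adjusted p = 0.258 in limma, or 0.228 with a block for replicate number). The median of all genes moved with that correction, from 0.04 to −0.08.

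Related genes outside the 39 moved in both directions. Of 17 further TCA cycle genes tested, 9 rose and 4 fell in limma. Suclg2 (log2 fold change 1.63), which encodes the GTP-forming succinyl-CoA ligase subunit, and the mitochondrial aminotransferase Got2 (1.31) rose most. Got1 (−1.08), the cytosolic aminotransferase, and Idh1 (−0.50), the cytosolic isocitrate dehydrogenase, fell most. Mitochondrial genes of the cycle did not all rise either. Sdha fell (−0.31, adjusted p = 0.00451 in limma), whereas Sdhb, Sdhc and Sdhd rose, and Idh3b and Dlst were not called. Of 6 further pentose phosphate genes tested, 4 rose and 2 fell, with Dera (1.35) and Rbks (1.25), which act on deoxyribose phosphate and ribose, rising most. H6pd (−1.50), the form of the first enzyme in the endoplasmic reticulum, and Shpk (−0.99) were the pair that fell. Shares called in these lists are to be read beside the 35.5% of all genes that rose and the 30.1% that fell.

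Of 21 further glycolysis genes tested, 2 rose, 9 fell and 10 were not called. Of the 9, 2 (Gapdhs and Slc16a7) were under 1 TPM in every GC pool and so passed the filter only through the naive pools. Bpgm (log2 fold change 1.24), which forms bisphosphoglycerate, and Pfkfb1 (0.95) rose. Pfkfb4, a regulator of phosphofructokinase, was at 1.87 to 2.60 TPM in GC and 20.2 to 25.3 TPM in naive pools (−2.85 ± 0.13, adjusted p = 5.46e-06 in limma). Slc16a7, which encodes the transporter MCT2, was at 0.0413 to 0.139 and 4.48 to 5.09 TPM (−2.44 ± 0.12, adjusted p = 8.16e-06 in limma). The count of 9 was 4 without naive replicate 1, and also 4 without naive replicate 2. Gapdhs and Slc16a7 were not tested in those fits, because too few of the remaining pools reached 1 TPM. Among genes of pyruvate entry, 5 of 10 tested rose and 2 fell. Pdk3 was at 52.6, 53.3 and 62.8 TPM in GC pools and at 13.4, 12.6 and 11.2 TPM in naive pools (2.10 ± 0.10, adjusted p = 6.27e-06 in limma), whereas Pdk2 was at 0.139 to 0.401 and 4.90 to 7.08 TPM (−2.49 ± 0.17, adjusted p = 2.87e-05 in limma) and passed the filter only through the naive pools. Pdhx (0.73), a structural subunit of the complex, also rose, and Pdp2 (−0.42), a phosphatase that activates it, fell. The 5 that rose were 3 without any single GC replicate or without naive replicate 2. The 2 that fell were 1 without any single naive replicate, where Pdk2 no longer passed the filter and was not tested.

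Regulators of glucose and oxygen responses were called in both directions, with 6 higher, 6 lower and 5 not called among 17 tested, shares close to the 35.5% and 30.1% of all genes. Txnip, whose product restrains glucose uptake and whose transcription follows glucose supply, was at 86.1, 82.6 and 80.7 TPM in GC pools and at 278, 303 and 243 TPM in naive pools (log2 fold change −1.71 ± 0.08, adjusted p = 7.32e-06 in limma). The prolyl hydroxylases, which mark HIF proteins for degradation in the presence of oxygen, differed among themselves. Egln2 (0.80) rose and Egln1 (−0.80) fell. Egln3 was at 1.16 to 2.52 TPM in GC and 0.103 to 0.419 TPM in naive pools (1.02) and passed the filter only through the GC pools. Of 14 tested HIF targets outside metabolism, 3 rose, 6 fell and 5 were not called, and 1 of the 6 (Mxi1) passed the filter only through the naive pools. Ndrg1 (1.78) and Mif (0.89) rose most, and Ddit4 (−2.36) and Ankrd37 (−0.96) fell most. Whether the list of HIF targets differed from the members was not tested.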

How the data were processed

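RNA-Seq libraries came from sorted GC and naive B cells of Peyer's patches, with 3 pools per population. Per the study's methods and the submitters' processing notes, reads were demultiplexed with CASAVA 1.8, checked with FastQC and trimmed with cutadapt 1.9. They were then quantified on the mouse transcriptome (NCBIm38) with RSEM 1.2.25, with a fragment length of 180 (SD 50). edgeR is also named in those notes, without its role. The authors deposited FPKM per Ensembl gene and pool, which summed to between 717537 and 774597. The value of a gene depends on the effective length that RSEM assigns and on how it divides reads between near-identical genes, and strand use in counting is not given in the sources used here.

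From the deposited FPKM, TPM was computed per pool. The files hold no counts. From the steps of low values, depth was about 9600000 to 16100000 reads per pool, but only 62.2% to 69.9% of the values used lay within 0.1 of a whole read, so that depth is approximate and no count test was run. The comparison of GC with naive pools used the functions lmFit and eBayes (trend on) of limma 3.58.1, run under R 4.3.3, on log2(TPM + 1). A gene was tested if 3 or more pools had 1 TPM or more. The fit was tested on simulated data. Isoenzyme shares were compared with two-sided exact permutation tests. Symbols came from the NCBIM37 annotation, which named 33398 identifiers; its transcripts were compared with BLAST 2.17.0+ to find copies (at least 95% identity over 150 bases). The remaining computations and plots were made in Python 3.11.15 (numpy 2.4.6, pandas 2.3.3, scipy 1.17.1 and matplotlib 3.10.9). Tigar, Mpc1 and Mpc2 were not matched. Promoters of Slc2a3 and Idh3a were not analysed here.

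The members and all gene lists were chosen with earlier results of these data known. All 39 members are named, and from each further list or marker list at most the 2 called genes with the largest and the 2 with the smallest log2 fold change. Slc2a6, Slc2a8, Tagln, Gapdhs, Mxi1, Sdha, Sdhb, Sdhc, Sdhd, Idh3b and Dlst were named outside this rule, after their values were seen. Alternatives covered the pseudocount, filters, scaling, the variance trend, the replicate block, leaving out each pool, and adding named copies. A correction for transcript length and GC content, which all 37 tested members could be given, and the addition of copies found by sequence were chosen after seeing the data. Not every gene of these lists is reported here.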

Additional observations from a re-analysis of the deposited data

How the results depend on the processing

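Of 1287 values recomputed under 19 alternative settings for 74 results, 1222 were labeled the same. For a gene this meant the same direction and side of the threshold. A count had to stay within a set factor, and another value without a test within a set spread. Some values could not move. Rescaling a pool leaves isoenzyme shares as they are, and adding copies changes only the members that have them. The total is therefore no measure of stability. Of the 37 tested members, 31 kept their call in every fit that tested them, 23 higher, 7 lower and 1 not called. The exceptions were Gpi1, Suclg1, Aldoc, Aldoa, Pfkm and Eno1. The members called higher numbered 24 to 26 and those called lower 7 to 9 over the alternatives.

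The members' median log2 fold change of 0.51 was 0.38 under quantile normalization and 0.44 after correction for transcript length and GC content, in the blocked and the unblocked fit alike. With FPKM as deposited, the ratio of summed levels was 1.22 for upper glycolysis, 1.91 for lower glycolysis, 1.31 for the pentose phosphate pathway and 1.49 for the TCA cycle. With median-of-ratios scaling it was 1.33 for the pentose phosphate pathway. The median over the transporters turned from 0.10 to −1.03 with a filter at 5 TPM, which left out Slc16a3, and to −0.011 with FPKM as deposited. Eno1 turned to −0.033 under quantile normalization and G6pdx to −0.023 without GC replicate 1, with 0.20 without GC replicate 3 at the other end. Apart from the filter, the cause was not tested.

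The deviations of GC and naive pools of the same number were weakly and positively correlated (0.083, 0.0225 and 0.0456, all under 0.1). Those of pools of different number lay between −0.0746 and 0.0298. Naive replicate 2 correlated best with GC replicate 3 (0.0298), and the other 5 pools with their own number. The methods do not say whether pools were paired by number. The correlations cannot decide this, because no pools known to be paired were at hand for comparison. With the replicate block, 25 members rose and 8 fell, and 4342 genes in all rose and 3618 fell, against 4540 and 3852 without it. The 5 pyruvate entry genes that rose were 3 with the block. Leaving out each pool in turn gave 25 to 26 members higher and 7 to 8 lower, and 3581 to 4347 genes higher and 3046 to 3566 lower in all. Where 1 pool was left out, the remaining 2 set that group's spread, pooled with the other group. The approximate depth limits Hk3, Ldhb, Pfkm and Slc16a3, the members near or below 1 to 4 TPM.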

Other observations

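Myeloid markers summed to 0.836 to 2.31 TPM in GC and to 3.96 to 7.07 TPM in naive pools. The 4 plasma cell genes summed to 131 to 135 TPM and 192 to 212 TPM, and they did not move together. Prdm1 rose (log2 fold change 1.62, adjusted p = 3.77e-05 in limma) and the other 3 fell, with Irf4 falling most, from 70.1 to 79.6 TPM in naive pools to 21.2 to 22.1 TPM in GC pools.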
